A study of Rattus norvegicus with 8 samples.

Results

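Immediate early transcription factors are the regulators whose genes are switched on within minutes of a stimulus, without any new protein being made first, and whose mRNAs are short-lived. The set described here holds 10 of the 37209 genes in the count table, chosen by symbol: Fos, Fosb, Fosl1, Jun and Junb of the AP-1 family, Atf3, which pairs with Jun proteins, Egr1 and Egr3 of the EGR zinc finger family, the orphan nuclear receptor gene Nr4a1, and Myc. All 10 symbols were present once in the table, and all 10 had enough counts for the test. mRNA had been sequenced from whole carotid arteries of male Sprague-Dawley rats, 4 injured and 4 control, all taken 2 weeks after surgery. Injured arteries were left carotids whose inner lining had been damaged with a balloon catheter, and the controls were the undamaged right carotids, which the study used as self-controls. No label states which injured and control artery came from the same rat, and p-values measure only the spread between these arteries. Total counts lay between 11459632 and 16658089 per artery. By these totals, 3 counts, the smallest level taken as a signal, were 0.18 to 0.262 CPM, the count scaled to the size of the library. This limit covers counting error only, and the CPM given below also use a scaling factor for each library.

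AP-1 is a dimer of a Fos protein with a Jun protein, or of Jun proteins with each other or with Atf3, and it binds a short DNA element in many genes of growth, matrix turnover and inflammation. The genes of Fos and Egr1 answer to serum response factor and its ETS partners, which are phosphorylated by MAP kinases, and to CREB. In arteries these factors are known for a transient rise after balloon injury and after stretch, and Egr1 for binding to the promoters of growth factor and tissue factor genes. Myc, which dimerises with Max, drives ribosome production and cell growth.

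The labelled tissue was checked first. Contractile smooth muscle genes summed to 11464 to 54398 CPM in every artery, whereas 6 genes of brain neurons together summed to 1.09 to 22.7 CPM, although the extraction notes speak of brain cortex. In every artery the counts of Neurod6 and Gad2 stayed at 3 or fewer, while Camk2a reached 284 counts in control artery 4. Control artery 4 stood apart from the other controls. Its log2 CPM correlated with theirs at 0.83 to 0.852 across genes, against 0.976 to 0.978 among the other 3, and its 13 sympathetic neuron genes summed to 11946 CPM against 17.5 to 24.4 CPM in them. Injured artery 3 followed with 3305 CPM of these genes. Values of the 10 factors without control artery 4 are therefore given below.

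None of the 10 factors passed the test for differential expression 2 weeks after injury. By the study's criteria, a false discovery rate (FDR) under 0.05 together with a fold change above 2, edgeR's quasi-likelihood test called 0 of 10, and 1 of the 10, Junb, had an unadjusted p under 0.05. Over all 14359 genes tested, 10.9% were called, 8.31% higher and 2.57% lower, while 0 of 10 factors were called in either direction. At an FDR under 0.05 alone the count was 0 of 10 against 17.2% of all genes. With the replicate number as a block 1 of 10 was called, Fosb, against 8.27% of all genes. DESeq2 called 0 of 10 against 12.9% of its genes, and edgeR without control artery 4 called 0 of 10 against 16.2%. The fitted log2 fold change was below 0 for 7 of the factors and above 0 for 3, with a median of -0.71 beside -0.06 over all genes tested. By the difference of mean log2 CPM, in which each artery weighs the same, 5 were below 0 and 5 above, with a median of -0.16, Egr3 (0.03) and Atf3 (0.01) having the other sign. Without control artery 4 the fitted log2 changes were -1.65 for Fos, -0.77 for Jun, 0.67 for Junb, 0.42 for Fosl1, -1.92 for Egr1, -0.76 for Egr3, -1.34 for Atf3 and 0.26 for Myc, with edgeR adjusted p values from 0.143 to 0.718. The CPM of the injured and control arteries overlapped for each of the 10, whereas they did not overlap for 23.7% of all genes tested. Arteries of the same group differed widely instead, and most of the factors were high in the same arteries.

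Fos, the founding member of its family, was at 448, 237, 38.3 and 91.0 CPM in control arteries 1 to 4 and at 201, 50.9, 30.3 and 26.5 CPM in injured arteries 1 to 4. Control arteries 1 and 2 and injured artery 1 were high and the other 5 were low, so the groups overlapped. The mean was 203 ± 183 CPM (SD, n = 4) in the controls and 77.2 ± 83.3 CPM (SD, n = 4) after injury. The fitted log2 change was -1.40 (s.e. 0.89, edgeR adjusted p = 0.333), with a 95% interval from -3.45 to 0.65. The interval reaches from a fall to 0.0917 of the control level to a rise of 1.57-fold.

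Fosb, a close relative of Fos that pairs with the same Jun proteins, had the lowest fitted value of the 10. Its level was 343, 180, 36.6 and 38.3 CPM in control arteries 1 to 4 and 89.4, 13.5, 6.91 and 5.24 CPM in injured arteries 1 to 4. Injured arteries 2 to 4 lay below every control, but injured artery 1 lay above control arteries 3 and 4. The fitted log2 change was -2.38 (s.e. 1.12, interval -4.95 to 0.20, edgeR adjusted p = 0.194). The exact permutation test of its mean log2 CPM, two-sided over all 70 relabellings, gave p = 0.0857, and with 4 arteries a group no p under 0.0286 can be reached. Leaving out 1 artery changed this call once. Without injured artery 1, Fosb was called lower, at -4.13 (edgeR adjusted p = 0.0392), and without control artery 4 it was not, at -2.70 (edgeR adjusted p = 0.0959).

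Junb was the factor whose fitted value was most clearly above 0. JunB forms AP-1 dimers like Jun but activates fewer promoters on its own. Its level was 129, 93.4, 48.1 and 60.1 CPM in control arteries 1 to 4 and 182, 158, 94.5 and 144 CPM in injured arteries 1 to 4. Control artery 1 was the only control above any injured artery, namely injured artery 3. The mean was 82.8 ± 36.5 CPM (SD, n = 4) in the controls and 144 ± 36.9 CPM (SD, n = 4) after injury. On the log2 scale the fitted change was 0.80 (s.e. 0.33, interval 0.04 to 1.57). Its edgeR p was 0.0415 before and 0.142 after adjustment, and the exact permutation p was 0.0571. Left-out arteries moved the value between 0.61 and 1.10 without a call.

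Jun, the main partner of the Fos proteins, was at 1256, 742, 251 and 201 CPM in control arteries 1 to 4. After injury its 4 levels were 926, 347, 297 and 198 CPM. The same 3 arteries as for Fos were the highest, and the lowest artery of each group, the one numbered 4, had almost the same level. Its fitted log2 change was -0.47 (s.e. 0.68, interval -2.04 to 1.10, edgeR adjusted p = 0.681). The fitted value turned to 0.14 without control artery 1.

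Fosl1 (Fra-1), a Fos relative without a strong activation domain, was near the limit of what the libraries could show. It had 10, 30, 4 and 10 counts in control arteries 1 to 4 and 12, 44, 17 and 16 counts in injured arteries 1 to 4, which is 0.277 to 2.46 CPM and 0.718 to 3.19 CPM. Control artery 2 and injured artery 2 were the highest of their groups, unlike for Fos. Its fitted log2 change of 0.58 (s.e. 0.71, interval -1.07 to 2.22, edgeR adjusted p = 0.628) became -0.055 without injured artery 2.

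**Figure D1:**
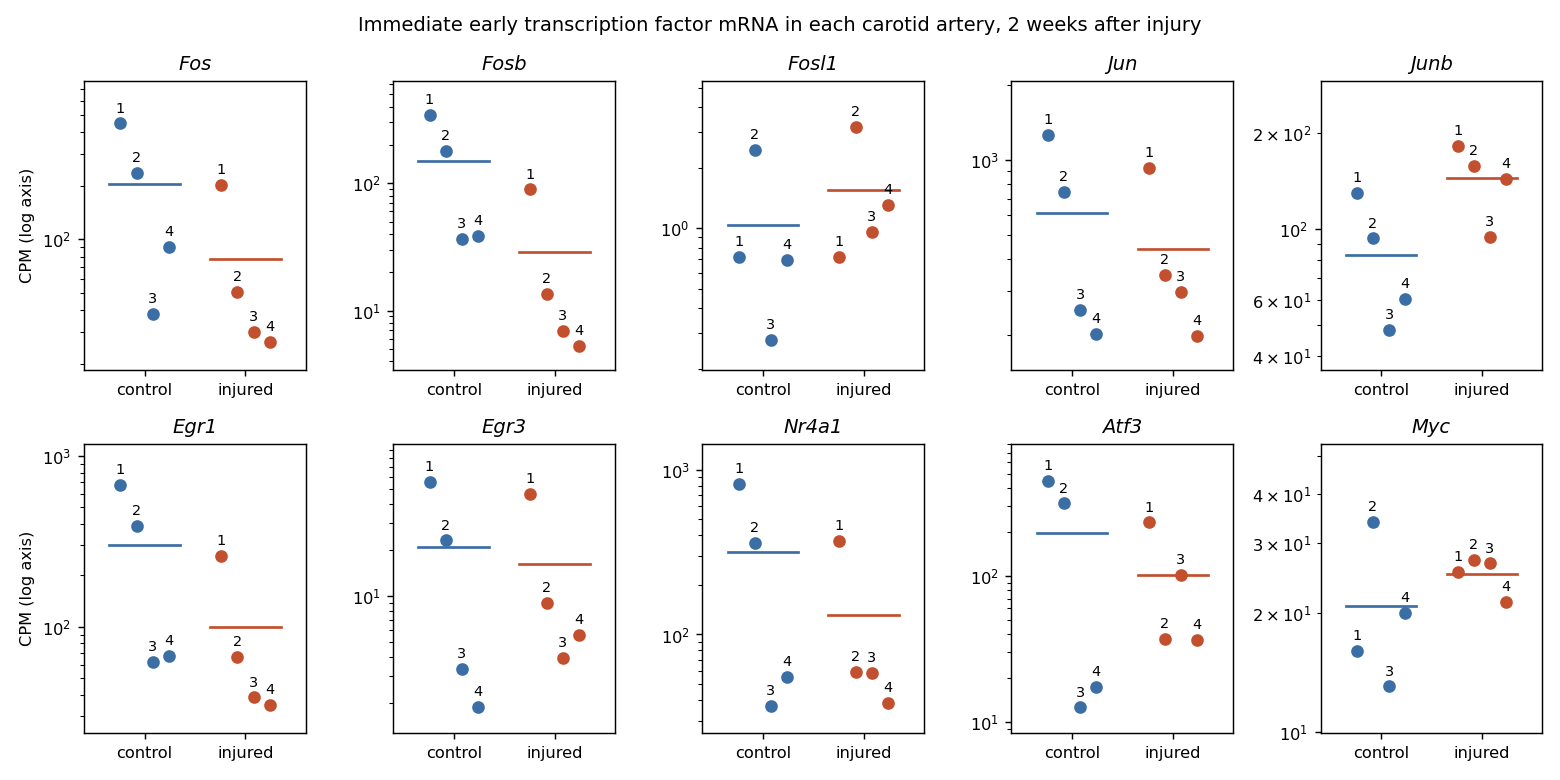
Level of each factor in each artery, in CPM on a log axis that differs between panels. Points are arteries, numbered as in the labels, blue for the 4 controls and red for the 4 injured arteries, and lines are group means. Control arteries 1 and 2 and injured artery 1 were the 3 highest for Fos, Fosb, Jun, Egr1, Egr3, Atf3 and Nr4a1, and the groups overlapped for all 10 factors.

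Egr1, a zinc finger factor of growth and stress responses, was at 678, 391, 62.5 and 67.3 CPM in control arteries 1 to 4 and at 259, 66.4, 38.6 and 34.7 CPM in injured arteries 1 to 4. Control arteries 1 and 2 and injured artery 1 were again above the rest. The fitted log2 change was -1.59 (s.e. 0.96, interval -3.79 to 0.62, edgeR adjusted p = 0.306), and the exact permutation p was 0.2. Egr3, which is induced by Egr1 in several cell types, was at 56.0, 23.1, 3.33 and 1.88 CPM in control arteries 1 to 4. Its levels in injured arteries 1 to 4 were 46.5, 9.0, 3.93 and 5.56 CPM. The highest control exceeded the lowest one 29.8-fold, a wider gap than that between the group means of 21.1 and 16.2 CPM. The fitted log2 change of -0.37 (s.e. 1.15, interval -3.01 to 2.27, edgeR adjusted p = 0.854) became 0.78 without control artery 1, and the difference of mean log2 CPM was 0.03.

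Nr4a1 (Nur77), an orphan receptor that binds DNA without a known hormone, was at 818, 359, 36.9 and 55.2 CPM in control arteries 1 to 4 and at 369, 59.5, 58.4 and 38.6 CPM in injured arteries 1 to 4. In both groups the arteries split into high and low ones, with only injured artery 1 high after injury. Its estimate on the log2 scale was -1.27 (s.e. 1.10, interval -3.81 to 1.26, edgeR adjusted p = 0.477), and -1.63 without control artery 4 (edgeR adjusted p = 0.276).

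The windows around the annotated starts of 5 of the 10 genes were present in the RefSeq table for build GRCr8, and 3 of them are shown, because Egr1 and Nr4a1 were high and low in the same arteries while Fosl1 was not. The build behind the counts is not given in the sources used here, and no count was taken by position. Each runs 5′ to 3′ on the gene's own strand from 250 bases before the start to 50 bases after it. Capitals mark matches, on either strand, to the CRE core (TGACG), the full CRE (TGACGTCA, which contains it), the AP-1 site (TGANTCA), the EGR site (GCGNGGGCG), the E-box (CACGTG), the TATA box (TATAAA) and the CArG box bound by serum response factor.
Egr1 (GRCr8, chr18:26736828-26737127, plus strand): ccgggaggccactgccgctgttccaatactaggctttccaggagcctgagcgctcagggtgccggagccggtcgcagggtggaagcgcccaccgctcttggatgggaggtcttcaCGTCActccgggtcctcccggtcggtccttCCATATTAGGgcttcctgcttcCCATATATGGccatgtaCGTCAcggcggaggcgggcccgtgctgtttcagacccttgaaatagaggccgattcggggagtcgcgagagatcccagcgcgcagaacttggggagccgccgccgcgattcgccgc
Nr4a1 (GRCr8, chr7:134259888-134260187, plus strand): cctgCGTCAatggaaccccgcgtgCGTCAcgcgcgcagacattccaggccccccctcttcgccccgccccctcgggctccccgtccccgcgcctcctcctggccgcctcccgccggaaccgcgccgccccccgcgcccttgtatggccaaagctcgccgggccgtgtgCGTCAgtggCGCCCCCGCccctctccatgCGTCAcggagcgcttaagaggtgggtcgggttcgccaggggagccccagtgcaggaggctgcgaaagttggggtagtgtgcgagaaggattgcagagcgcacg
Fosl1 (GRCr8, chr1:212183635-212183934, plus strand): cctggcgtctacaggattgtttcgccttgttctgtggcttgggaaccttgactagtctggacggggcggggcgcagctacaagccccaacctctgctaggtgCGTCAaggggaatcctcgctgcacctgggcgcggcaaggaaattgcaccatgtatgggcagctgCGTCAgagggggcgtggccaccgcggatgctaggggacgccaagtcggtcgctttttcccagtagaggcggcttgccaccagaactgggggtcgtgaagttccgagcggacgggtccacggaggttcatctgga
The Egr1 window held 2 CArG boxes, CCATATTAGG from base -105 and CCATATATGG from base -83, and 2 CRE cores. A CArG box was present in 1.64% of all 33469 windows of this length. Nr4a1 had 4 CRE cores and 1 EGR site, and Fosl1 had 2 CRE cores. Of the 5 windows, 4 held a CRE core, beside 21.2% of all windows, and none held an AP-1 site, an E-box or a full CRE, which 7.33%, 6.42% and 1.83% of all windows did. The Junb window had 1 TATA box, from base -49, and 1 CRE core. The Fosb window had 1 match to the TATA box, from base -180 and on the opposite strand. A TATA box was present in 14.2% of all windows and an EGR site in 4.98%. These matches describe letters within the windows and no binding was measured.

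Atf3, a stress-responsive factor that acts as a repressor when it pairs with itself, showed the widest spread between arteries among the 10. It was at 449, 314, 12.6 and 17.5 CPM in control arteries 1 to 4, a 35.6-fold range. In injured arteries 1 to 4 it was at 233, 37.3, 102 and 36.5 CPM, so that every injured artery lay above control arteries 3 and 4 and below control arteries 1 and 2. Here injured artery 3 was the second highest of its group, which it was for no other factor that peaked in injured artery 1. For the contrast, the fitted log2 change was -0.95 (s.e. 1.15, interval -3.60 to 1.69, edgeR adjusted p = 0.617), the difference of mean log2 CPM was 0.01, and the exact permutation p was 1.0.

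Myc was the most even of the 10. Its levels were 16.0, 34.0, 13.0 and 20 CPM in control arteries 1 to 4 and 25.4, 27.2, 26.7 and 21.4 CPM in injured arteries 1 to 4. All 4 injured arteries exceeded 3 of the controls and lay below control artery 2. The mean of 20.8 ± 9.30 CPM (SD, n = 4) in the controls and that of 25.1 ± 2.64 CPM (SD, n = 4) after injury gave a fitted log2 change of 0.28 (s.e. 0.29, edgeR adjusted p = 0.554). The interval, -0.38 to 0.94, lies inside a 2-fold change in either direction, which that of no other factor did.

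**Figure D2:**
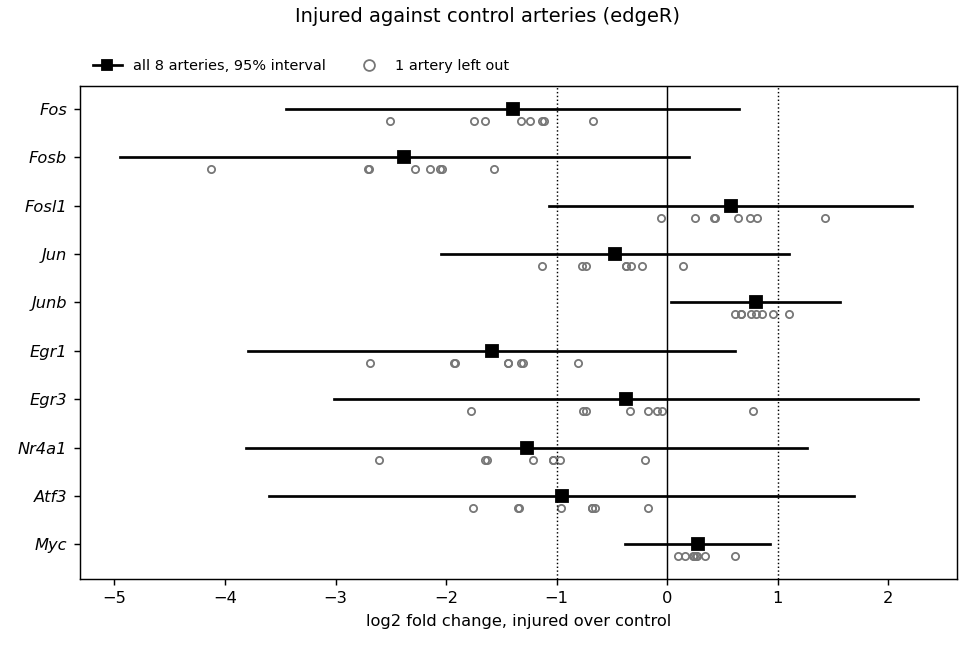
Log2 fold change of each factor, injured over control, from edgeR. Squares with bars are the fit of all 8 arteries with its 95% interval, open circles are the fits with 1 artery left out, and dotted lines mark a fold change of 2. The interval contains 0 for all factors but Junb (0.04 to 1.57), and the circles lie on both sides of 0 for Fosl1, Jun and Egr3.

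How far arteries of the same group lay apart was compared with all genes tested, as the pooled standard deviation (SD) of log2 CPM within the groups. The median was 1.502 over the 10 factors and 0.335 over the 14359 genes. Atf3 had 2.11, Egr3 1.94, Nr4a1 1.83 and Fosb 1.73, each above at least 96.7% of all genes tested. Egr1, Fos, Jun and Fosl1 followed with 1.56, 1.45, 1.11 and 0.98, above 96.1%, 95.6%, 93.2% and 91.5% of the genes. Junb (0.54) and Myc (0.43) were closer to the bulk, above 74.0% and 63.8%. Part of the value for Fosl1 is counting error, given its 4 to 44 counts per artery.

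**Figure D3:**
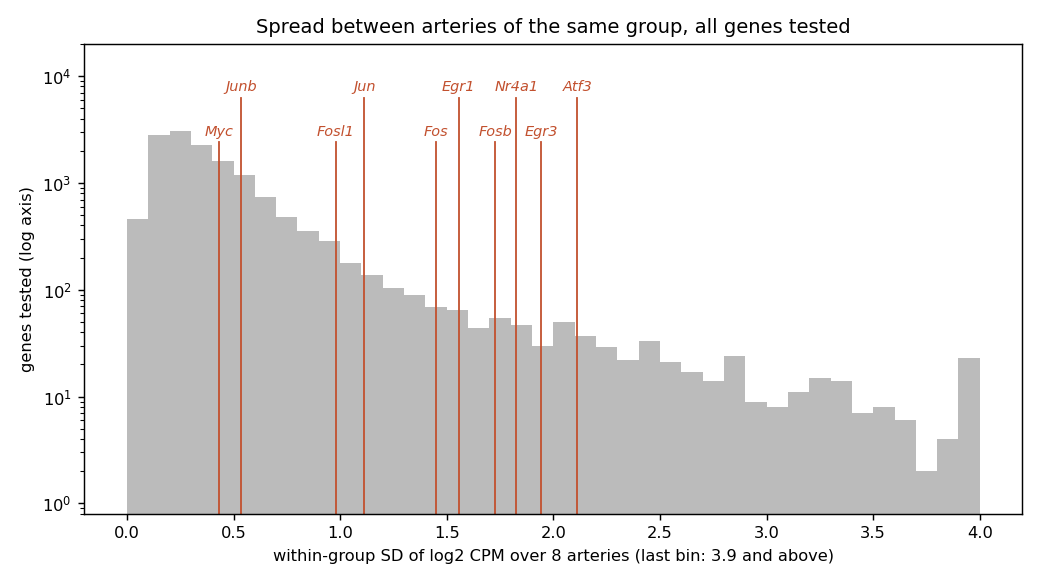
Histogram of the within-group SD of log2 CPM for the 14359 genes tested, with the number of genes on a log axis, and a red line for each of the 10 factors. Myc and Junb stand near the bulk of the genes, and the other 8 factors between 0.98 and 2.11 in its tail.

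The high arteries were largely the same ones. Control artery 1 was the highest control for 8 of the 10 factors (23.3% of all genes tested), and injured artery 1 was the highest injured artery for the same 8 (21.0% of all genes). Fosl1 and Myc were the exceptions, with the artery numbered 2 the highest in both groups. Control arteries 1 and 2 both exceeded control arteries 3 and 4 for 9 of the 10, all but Myc, whose control artery 4 lay above control artery 1, beside 17% of all genes. Without control artery 4, control arteries 1 and 2 exceeded control artery 3 for 10 of 10 against 31.6% of all genes. Both features, the high pair of controls and the highest injured artery 1, were shared by 8 factors and by 6.07% of all genes tested. The labels name no batch or day that could be set against this split.

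Other immediate early and feedback genes were read next, from a list of 39 that held none of the 10. Of these, 4 were called higher after injury and 0 lower, beside 8.31% and 2.57% of all genes tested. The median log2 fold change was -0.12. The called genes were Nfkbiz, which codes for a nuclear IκB protein, Socs3, the feedback inhibitor of cytokine receptors, Cebpd, an acute phase factor, and Dusp2, a nuclear MAP kinase phosphatase. Socs3 rose to 57.6 ± 15.7 CPM (SD, n = 4) after injury, beside 12.8 ± 3.31 CPM (SD, n = 4) in the controls, which was 2.17 on the log2 scale (s.e. 0.26, edgeR adjusted p = 0.00129). Nfkbiz rose by 2.25 (edgeR adjusted p = 0.00395) and Cebpd by 1.13 (0.00524), and these 3 were called in each of the 8 leave-one-out fits. Dusp2, at 0.720 to 1.39 CPM in the controls, was called in 0 of them. With the replicate number as a block, the edgeR adjusted p was 0.0719 for Dusp2, 0.027 for Dusp1 and 0.0395 for Gadd45b. In the main fit Dusp1 had -1.37 (edgeR adjusted p = 0.206) and Gadd45b 0.84 (0.0937), and neither was called.

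The between-artery pattern of the 10 factors recurred in part of that list. Control arteries 1 and 2 both exceeded control arteries 3 and 4 for 27 of its 39 genes, beside 17% of all genes tested. Injured artery 1 was the highest of its group for 20, beside 21%. Both features were shared by 19, beside 6.07%. Control artery 1 was the highest control for 15, beside 23.3%. Ccn2 (Ctgf), the most abundant gene of the list and a matrix protein gene induced by stretch, was at 6957, 5284, 2605 and 1548 CPM in control arteries 1 to 4 and at 3402, 3081, 1510 and 1738 CPM in injured arteries 1 to 4. Ptgs2, the inducible cyclooxygenase, was at 345, 274, 22.2 and 24.5 CPM and at 279, 54.2, 12.1 and 10.7 CPM in the same order. Neither was called, with edgeR adjusted p values of 0.348 and 0.67. Of the called genes, Nfkbiz and Cebpd had the high pair of controls and Socs3 did not. For each of them the highest injured artery was the one numbered 2.

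Genes that followed each factor most closely were looked for among all genes tested, by Pearson's r of log2 CPM over the 8 arteries after the mean of each group was taken off. These values describe 8 libraries only, and since most deviations come from the same 3 arteries, no test was made. Egr1 was closest to Arid5a (r = 0.993), an RNA-binding protein gene, and had Nr4a1 (0.986) among its 3 nearest genes. Nr4a1 was closest to Ppp1r15a (0.995), whose product reverses the stress block on translation, and next to Egr1 and Jun. Fosb was closest to Btg2 (0.9895), Cyr61 (0.9895) and Ptgs2 (0.980). Egr3 was closest to Zfp36 (0.995), which codes for an mRNA decay factor, and Junb had Ier2 (0.979) as its second. The nearest genes to Myc and Fosl1 were Wipf3 (0.967) and Traf4 (0.9754). Neither was in the lists, and the same was so of the nearest genes to Fos, Jun, Junb, Egr1 and Atf3.

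**Figure D4:**
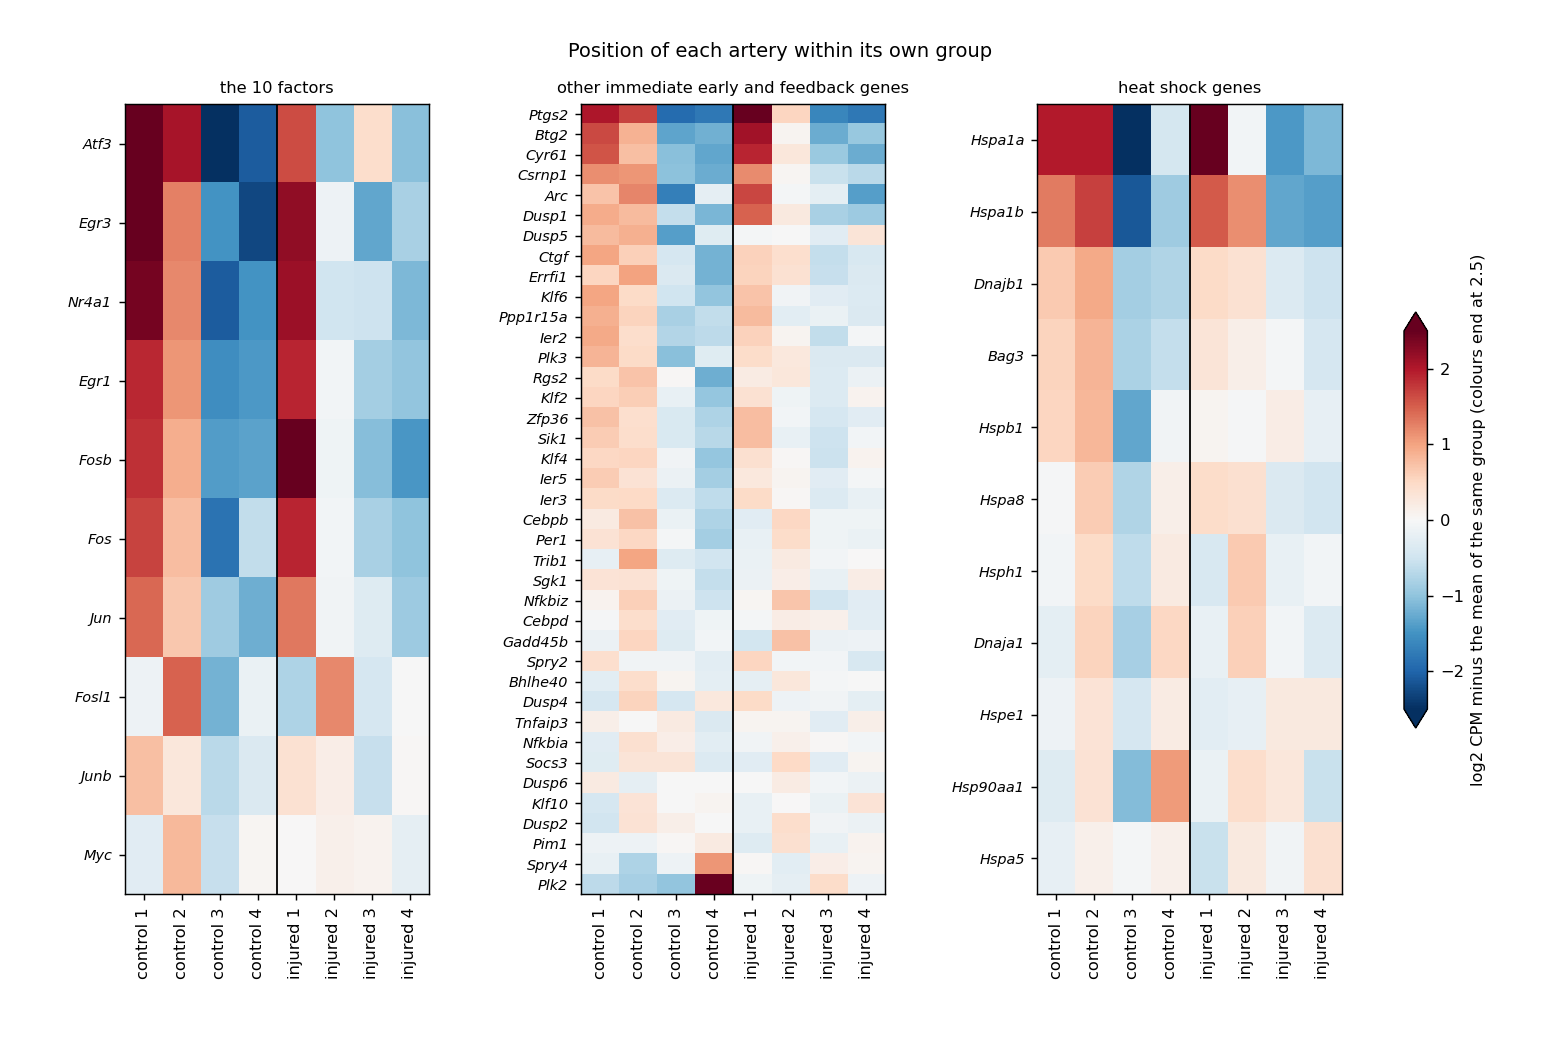
Log2 CPM of each gene minus the mean of its group, for the 10 factors, 39 other immediate early and feedback genes and 11 heat shock genes, with rows ordered by how far control arteries 1 and 2 exceed control arteries 3 and 4. Red is above and blue below the group mean. Control arteries 1 and 2 and injured artery 1 are red for 8 of the 10 factors and for the upper part of the middle panel, and Plk2 stands out in control artery 4.

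Members were also set against Fos within each artery, as log2 CPM minus that of Fos, which takes off whatever moved both alike. Transcript lengths differ, so only the change of this value between arteries can be read. For Egr1 it was 0.37, 0.38, 0.35 and 0.39 in injured arteries 1 to 4, a spread of 0.0167 (SD, n = 4), although each of the genes alone varied over 7-fold among those arteries. It was 0.60, 0.72, 0.70 and -0.43 in control arteries 1 to 4, with control artery 4 apart. The values for Junb were -1.79, -1.34, 0.33 and -0.60 in the controls and -0.15, 1.63, 1.64 and 2.43 after injury, so that injured artery 1 and control artery 3 made the groups overlap. For Fosb they were -0.38, -0.39, -0.07 and -1.25 in the controls and -1.17, -1.90, -2.11 and -2.31 after injury, with only control artery 4 within the injured range. Of the 9 factors, 1 had no overlap, Egr3, which was higher against Fos after injury, and the same was so of 3.27% of all genes tested, while 0.0209% were lower without overlap. The nearest values of Egr3 were -3.00 in control artery 1 and -2.90 in injured artery 3, and control artery 4, at -5.50, rested on 27 counts.

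**Figure D5:**
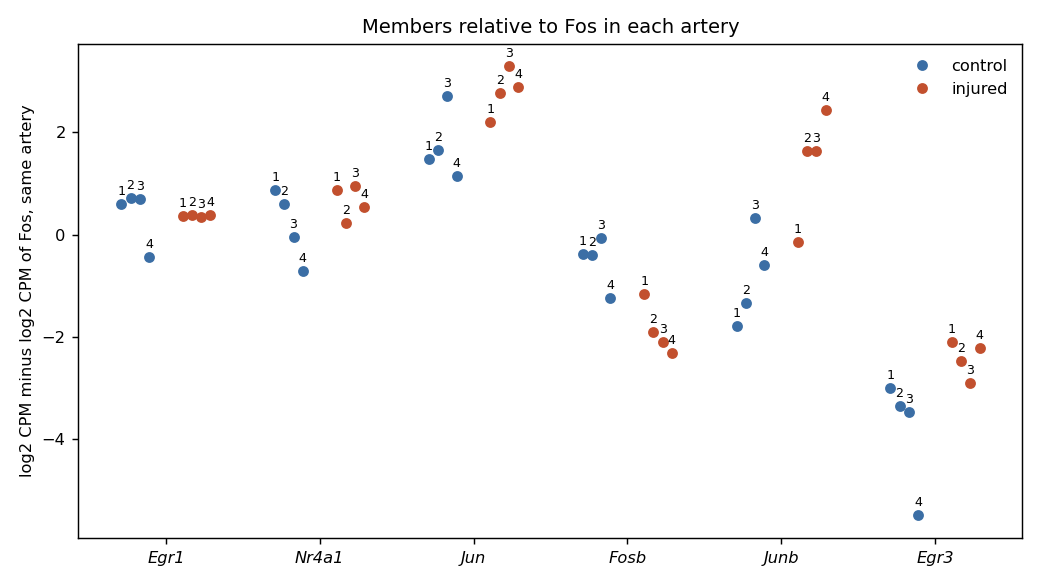
Log2 CPM of 6 factors minus log2 CPM of Fos in the same artery, for control (blue) and injured (red) arteries numbered as in the labels. The 4 injured arteries lie between 0.35 and 0.39 for Egr1, and the groups are separate only for Egr3, by the gap from -3.00 to -2.90.

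Of 15 AP-1 relatives and bZIP partners, all tested, 4 were called higher and 0 lower, beside 8.31% and 2.57% of all genes tested. The median log2 change was 0.04. The high pair of controls together with the highest injured artery 1 was seen for 4 of the 15. Among the 4 called genes were Batf and Batf3, which pair with Jun proteins in lymphoid and dendritic cells, and Maf, a large Maf factor. Batf3 had 3, 5, 2 and 6 counts in control arteries 1 to 4 and 35, 32, 35 and 27 counts in injured arteries 1 to 4, and Batf had at most 2 counts in any control and 19 to 33 after injury. Both were called in all 8 leave-one-out fits, and Maf (log2 change 1.11, edgeR adjusted p = 0.0234) in 4 of them. Jund, the most abundant gene of the list, was not called, at 364 ± 169 CPM (SD, n = 4) in the controls and 274 ± 73.4 CPM (SD, n = 4) after injury.

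Macrophage genes were read beside these. Of 11 macrophage genes 10 were called higher, and their sum was 230.2 to 335 CPM in the controls and 1896 to 2784 CPM after injury. T cell genes summed to 19.8 to 41.3 CPM and 129 to 167 CPM, with 2 of 7 called, but most of the sum was Cd4, which rat macrophages also express. The other 6 T cell genes summed to 1.73 to 10.2 CPM in the controls and 11.7 to 27.7 CPM after injury. Their part in the Maf, Batf and Batf3 values was not tested, and in these bulk samples a change in the number of cells of a type and a change in RNA per cell cannot be told apart.

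The remaining EGR and NR4A genes and their NAB corepressors gave no call among 5 tested, beside 10.9% of all genes tested. Nab1, the most abundant, was at 140.0 ± 34.5 CPM (SD, n = 4) in the controls and 75.8 ± 5.34 CPM (SD, n = 4) after injury, where the edgeR adjusted p was 0.0172 but the fold change was under 2. Nr4a3, named after its values were seen as the nearest relative of Nr4a1, was at 272, 259, 25.1 and 29.7 CPM in control arteries 1 to 4 and 164, 49.8, 11.3 and 12 CPM in injured arteries 1 to 4, the same split as for Nr4a1. Egr2, named likewise, averaged 10.6 ± 8.35 CPM (SD, n = 4) in the controls and 26.3 ± 11.8 CPM (SD, n = 4) after injury and was not called (edgeR adjusted p = 0.18). Egr4 had at most 1 count in any artery.

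Upstream of the factors, 2 of 15 genes tested for MAP kinases and for serum response factor, its partners and CREB were called, both higher. Of all genes tested, 8.31% were called higher. Elk3, an ETS partner of serum response factor, averaged 64.9 ± 5.12 CPM (SD, n = 4) in the controls and rose to 132 ± 21.0 CPM (SD, n = 4), by 1.02 on the log2 scale (s.e. 0.13, edgeR adjusted p = 0.00204). Map3k8, a kinase above ERK, rose by 1.06 (edgeR adjusted p = 0.0162). Both lie just past the fold criterion, and neither was called without control artery 4. Mapk3, the most abundant of the list, was at 484 CPM in control artery 4 and at 130 to 132 CPM in the other controls.

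In the MYC network, 2 of 12 genes were called, both higher, beside 8.31% of all genes tested. Mxd3, a Max partner found in dividing cells, had at most 2 counts in any control and 25 to 48 counts in the injured arteries. Mycl, a Myc paralog, averaged 1.01 CPM in the controls and 6.71 CPM after injury, higher by 2.72 on the log2 scale (s.e. 0.60, edgeR adjusted p = 0.0175). Of 20 MYC target genes for ribosome assembly, polyamine synthesis and growth, 0 were called by edgeR or by DESeq2, with a median log2 change of -0.14. These tests called 10.9% and 12.9% of all their genes. At FDR alone 2 of the 20 passed, against 17.2% of all genes. Ncl, their most abundant gene, was at 252 ± 17.3 CPM (SD, n = 4) in the controls and 241 ± 19.5 CPM (SD, n = 4) after injury. The 9 proliferation genes, by comparison, were all called higher, summing to 11.2 to 20.2 CPM in the controls and 92.9 to 144 CPM after injury.

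Genes with known AP-1 or EGR1 sites formed a list of 22. Of the 17 tested, 9 were called higher and 1 lower, beside 8.31% and 2.57% of all genes tested, with a median log2 change of 1.11. Without control artery 4, 13 of the 22 listed were called in either direction, beside 16.2% of all genes tested in that fit. Macrophage genes, 10 of 11 higher, and skeletal muscle genes, 7 of 9 higher with sums of 84.5 to 253 CPM in the controls and 304 to 1100 CPM after injury, moved in the same comparison, and their part in the target values was not tested. Plau and Plaur, urokinase and its receptor, rose by 2.72 and 2.17 on the log2 scale (edgeR adjusted p = 0.000391 and 0.00148). Mmp9, the gelatinase, had at most 4 counts in any control and 51 to 374 counts in the injured arteries, and Ccnd1, Hmox1, Ccl2, Pdgfa, Tgfb1 and Spp1 were called as well. F3, the tissue factor gene, averaged 255 ± 107 CPM (SD, n = 4) in the controls and 66.1 ± 20.9 CPM (SD, n = 4) after injury, and was called lower, at -1.95 on the log2 scale (s.e. 0.38, edgeR adjusted p = 0.011). In these targets the high control pair with the highest injured artery 1 was seen in 5.88%, against 6.07% of all genes tested.

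Heat shock genes and cell type markers were set beside the split between arteries. Of 11 heat shock genes tested, 10 were higher in control arteries 1 and 2 than in control artery 3, beside 31.6% of all genes. For 5 of them this pair exceeded both control arteries 3 and 4, beside 17%. Control artery 1 was the highest control for 0 of the 11, beside 23.3%. The high pair together with the highest injured artery 1 was seen for 4, beside 6.07%. Hspa1b, an inducible chaperone gene named after its values were seen, was at 465, 619, 43.2 and 102 CPM in control arteries 1 to 4 and at 160, 123, 22.5 and 21.1 CPM in injured arteries 1 to 4. Bag3, a chaperone partner, was the 1 heat shock gene called, lower after injury (log2 change -1.41, edgeR adjusted p = 0.0415), a call made in 2 of 8 leave-one-out fits. Over all genes tested, 2.57% were called lower. Hspb1, the most abundant, was not called (log2 change -1.20, edgeR adjusted p = 0.0771).

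Contractile smooth muscle genes showed much of the order seen for the 10 factors. Control arteries 1 and 2 both exceeded control arteries 3 and 4 for 7 of the 9. That pair together with the highest injured artery 1 was seen for 6 of the 9, beside 6.07% of all genes tested. Control artery 1 was the highest control for 8 of the 9, and injured artery 1 the highest injured artery for 8. Their sum was 54398, 46648, 40518 and 18763 CPM in control arteries 1 to 4 and 18058, 15328, 11464 and 14361 CPM in injured arteries 1 to 4. After injury 6 of the 9 were called lower, beside 2.57% of all genes tested. Of these 6 calls, 4 were made in only 1 or 2 of the 8 leave-one-out fits. Without control artery 4 the count was 8 of 9, beside 16.2% of all genes called in either direction in that fit. The sum varied less among control arteries 1 to 3 than Fos did, and the median within-group SD was 0.54 against 1.502 for the 10 factors. Injured artery 1 was the highest of its group for 5 of 11 macrophage genes and 5 of 7 T cell genes, beside 21% of all genes. The high pair of controls was seen for 0 of these 11 and 1 of these 7, beside 17% of all genes. Endothelial genes had the high pair of controls for 6 of 8 and the highest injured artery 1 for 2. The sympathetic neuron genes summed to 24.4 and 17.5 CPM in control arteries 1 and 2 and to 225 CPM in injured artery 1, where the factors were high. The part of heat shock, smooth muscle, endothelial or leukocyte content in the levels of the 10 factors was not tested.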

How the data were processed

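mRNA was sequenced from 4 injured and 4 contralateral carotid arteries. The authors deposited raw counts per gene for 37209 symbols. HISAT2 2.0.4 is named in the submitters' processing notes, and the counting tool, genome build and strand setting are not given in the sources used here, so overlapping, antisense or near-identical genes are uncertain. Column names matched the sample titles.

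Counts were analysed in R 4.3.3 with edgeR 4.0.16. Low genes were dropped by filterByExpr, leaving 14359, libraries were scaled by TMM, and the quasi-likelihood test compared the groups without a covariate, with Benjamini-Hochberg adjustment over all genes tested. A gene was called at a fold change over 2 with its FDR below 0.05. Each standard error (s.e.) was derived from the F statistic. CPM use the TMM factors, and log2 CPM a prior count of 2. The functions were tested on simulated data. Alternatives were DESeq2 1.42.0, RLE, upper-quartile and unscaled libraries, other filters, FDR alone, a replicate block and each artery left out.

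The 10 factors, the other lists and the naming rule were chosen with earlier results of these data known. Named were all 10 factors, in each list up to 3 called rises and 2 falls and the most abundant gene, the 3 genes nearest each factor, and markers. Of 241 list entries, 236 matched by symbol and 5 by a synonym. Artery positions, values relative to Fos and differences of mean log2 CPM were chosen after seeing the data. So were the other named genes: Nr4a3, Nr4a2, Egr2, Egr4, Hspa1b, Maf, Dusp2, Dusp1, Gadd45b and Plk2. The targets named without values and those read outside the test were chosen likewise. Some genes that the naming rule selects are not reported here.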

Additional observations from a re-analysis of the deposited data

Results flagged for a closer look

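In 20 groups of 4 arteries, 1 for each factor and group, an artery's gap to the nearest of the others was set against the whole range. On CPM it exceeded Dixon's 95% critical value in 5, and in each of the 5 the artery was injured artery 1. The 1 in 20 that chance gives assumes values spread symmetrically, which CPM need not be. On log2 CPM, a scale chosen after seeing the data, 0 of the 20 groups passed. On CPM the ratio was 0.861 for Fos (201 against 50.9 CPM in the nearest injured artery), 0.902 for Fosb (89.4 against 13.5 CPM), 0.859 for Egr1 (259 against 66.4 CPM), 0.881 for Egr3 (46.5 against 9.0 CPM) and 0.937 for Nr4a1 (369 against 59.5 CPM). On log2 CPM it was 0.679, 0.669, 0.678, 0.668 and 0.809 in the same order. These factors vary together, so the 5 are not separate observations. No group of control arteries passed on either scale.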

How the results depend on the processing

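Each factor was read under 16 alternatives, except Fosl1, which had too few counts for the filter of at least 10 in every sample. FDR alone keeps the main fit and changes only the criterion, so its fitted values could not change sign. Of 159 fitted values, 153 kept their direction and stayed uncalled, 4 changed sign and 2, both of Fosb, became called. The sign changed for Fosl1 without injured artery 2 (-0.055), for Jun and Egr3 without control artery 1 (0.14 and 0.78) and for Atf3 with the replicate block (0.018). With the replicate number as a block, 1 factor was called lower, Fosb, at -2.73 on the log2 scale (edgeR adjusted p = 0.0141), beside 8.27% of all genes, and Junb had 0.87 (edgeR adjusted p = 0.0375), under the fold criterion. Whether the numbers mark the same rat is not stated. Across genes, how far an artery lay from its group mean correlated between equal numbers at 0.301, 0.45, -0.52 and -0.416 for numbers 1 to 4. Of the 4 control arteries, 1 had its best match in the injured artery of its own number. Of the 4 injured arteries, 2 had theirs in the control artery of the same number. With 1 artery left out, 0 to 1 factors were called lower and 0 higher, and the fitted value ranged from -0.055 to 1.43 for Fosl1, -1.13 to 0.14 for Jun and -1.77 to 0.78 for Egr3.

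Over all genes, 1193 were called higher and 369 lower. With each artery left out these were 945 to 1817 and 197 to 581, the highest of both without control artery 4. At least 10 counts in every sample gave 715 higher, FDR alone 918 lower and the replicate block 234 lower. Unscaled libraries moved the median of all genes by 0.175 on the log2 scale. Among the lists, the count of called AP-1 relatives was 7 with FDR alone and 2 under that stricter filter, that of the MYC network 0 under that filter and 1 to 2 with an artery left out, that of the upstream genes 1 with DESeq2 and 0 to 2 with an artery left out, and that of MYC targets 2 with FDR alone. EGR and NR4A genes gave 1 with FDR alone or the replicate block and 0 to 1 with an artery left out. Heat shock genes gave 2 with DESeq2 or the replicate block, 0 with upper-quartile factors, unscaled libraries or no filter, and 0 to 3 with an artery left out. Contractile smooth muscle genes, 6 of 9 called lower, gave 2 with the replicate block. Fewer genes passed the stricter filter, and the other causes were not tested. Fosl1, at 4 to 44 counts, is limited by depth.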

Other observations

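Some genes of the lists could not be read from this table. Timp1, Elk1 and Mapk7 were listed at 0 in all 8 arteries, which was not taken as absence. Of 4 AP-1 targets listed above 0 but too low for the test, 3 were highest in injured artery 2, with 120 counts of Mmp3 against at most 36 in any other artery, 130 of Mmp13 against at most 3, and 28 of Il6 against at most 6. Mmp10 was highest in injured artery 4, with 5 counts against 3 in injured artery 2. Injured artery 2 also had the highest Fosl1 level, 3.19 CPM, and a link between these values was not tested. Plk2, a kinase gene counted among the immediate early genes, was at 188.5 CPM in control artery 4 and at 17.05 to 21.5 CPM in the other controls. In injured arteries 1 to 4 it was at 70.6, 65.1, 104.7 and 69.5 CPM, above all controls but control artery 4. It was not called (edgeR adjusted p = 0.809), though it was in 1 of the 8 leave-one-out fits.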
